A study of Rattus norvegicus with 23 samples.

Results

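The genes described here belong to the cells that wrap around blood vessels, and were followed in RNA sequencing of microglia from newborn rat brain. They were chosen by name as known genes of pericytes and vascular smooth muscle cells, and all 10 are among the 20301 genes of the deposited table: the receptors Pdgfrb and Notch3, the potassium channel genes Kcnj8 and Abcc9, the G protein regulator Rgs5, the contractile genes Acta2, Myh11, Tagln and Cnn1, and the intermediate filament gene Des. Pericytes sit on capillaries and smooth muscle cells on arterioles, and both are called mural cells. Endothelial cells recruit pericytes with PDGF-B, which binds the receptor made from Pdgfrb. Contractile mural cells narrow the vessel through actin and smooth muscle myosin, and mural cells support the blood-brain barrier. Microglia, the cells the isolation aimed at, are macrophages of the brain. Which cells of the isolates the transcripts came from was not tested.

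The 23 samples came from 7-day-old Wistar rats, 24 h after the operation. The 6 Sham samples came from pups with a neck incision under isoflurane and no listed injection, and the 5 LPS samples from pups given 0.1 mg/kg lipopolysaccharide, a bacterial cell wall component, into the abdomen 4 h before the same incision. The 6 NaCl/HI samples came from pups injected with saline, and the 6 LPS/HI samples from pups injected with the same LPS dose, before hypoxia-ischemia (HI), in which the left common carotid artery was tied and the pups then breathed 8% oxygen for 50 min. All cells were collected with magnetic beads against CD11b/c. Each Sham or LPS sample was the entire brain of 1 pup, while each NaCl/HI or LPS/HI sample pooled the ipsilateral hemispheres of 2 pups, so wherever an HI group is set against Sham or LPS, the injury, the tissue taken and the pooling cannot be told apart. Only Sham had no listed injection, so in every comparison that includes Sham the injection cannot be told apart either.

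Values are log2 values after the regularized logarithm (rlog) of DESeq2, which draws genes with few reads toward their mean, and after the authors had removed 3 surrogate variables. They are not scaled to gene length, so a gene is compared only with itself between samples. The library medians lay between 7.75 and 7.82 log2, and the depth of each sample is unknown. The 10 genes were measured above 0 in every sample, between 3.28 and 11.06, and none had the same values as another gene. The mean of 12 microglia markers lay between 13.98 and 14.33 in the individual samples, which does not measure how pure the isolates were. In bulk RNA, fewer mural cells and less RNA per mural cell cannot be told apart.

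The promoters of Kcnj8, Abcc9 and Acta2 are shown because 2 of the genes, Kcnj8 and Abcc9, differed together between groups and are neighbours with 0 genes between them, and because smooth muscle genes such as Acta2 are known targets of serum response factor, which binds the CArG box. The sequences are the 250 bases before the gene start from RefSeq on GRCr8, a later build than that of the data, written 5′ to 3′ on the strand of the gene. The search was for CC, then 6 bases that are each A or T, then GG, a pattern that is the same on both strands, and capitals mark runs that match it with 1 base off.
Kcnj8, chr4:177246549-177246798, minus strand: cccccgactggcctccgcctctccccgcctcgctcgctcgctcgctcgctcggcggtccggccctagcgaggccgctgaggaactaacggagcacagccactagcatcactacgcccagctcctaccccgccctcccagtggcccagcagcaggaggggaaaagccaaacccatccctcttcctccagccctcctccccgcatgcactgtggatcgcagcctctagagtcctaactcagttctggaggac
Abcc9, chr4:177386349-177386598, minus strand: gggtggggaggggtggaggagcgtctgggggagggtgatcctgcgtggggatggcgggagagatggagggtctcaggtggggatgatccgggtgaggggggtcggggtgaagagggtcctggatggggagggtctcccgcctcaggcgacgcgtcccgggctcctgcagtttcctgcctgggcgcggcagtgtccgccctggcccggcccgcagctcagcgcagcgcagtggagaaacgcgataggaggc
Acta2, chr1:241172504-241172753, minus strand: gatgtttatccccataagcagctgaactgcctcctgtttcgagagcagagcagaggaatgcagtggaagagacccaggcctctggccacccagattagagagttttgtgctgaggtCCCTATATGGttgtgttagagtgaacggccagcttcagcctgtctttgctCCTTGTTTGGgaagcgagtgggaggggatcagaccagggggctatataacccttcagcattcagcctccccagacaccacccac

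Of the 10 genes, 7 had a promoter in the RefSeq table, and Pdgfrb, Tagln and Myh11 did not. None of the 7 held an exact CArG box in this window, and Acta2 alone held runs with 1 base off, starting 134 and 84 bases before the gene start. An exact box was in 1.5% of all 33469 promoters, and a box with at most 1 base off in 8.08%. Of 21 other contractile genes, 17 had a promoter, of which 1 held an exact box and 2 held one with at most 1 base off.

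Kcnj8 and Abcc9 were higher in LPS/HI than in Sham and than in LPS, by 0.23 to 0.28 log2 (1.17- to 1.22-fold), and the other 8 genes did not pass the test in any pair of groups. Against LPS, all 10 genes had a higher mean in LPS/HI, with a median difference of 0.23. Against Sham, 9 of 10 had a higher mean in LPS/HI (median 0.16) and 9 of 10 in NaCl/HI (median 0.15). The median difference of all genes was 0.00 and -0.01 in the comparisons of LPS/HI and NaCl/HI with Sham, and 0.00 in that of LPS/HI with LPS. In LPS without HI, 2 of 10 were higher than in Sham (median -0.02), a count that ran from 1 to 5 when single libraries were left out, with 5 and a median of 0.01 without Sham replicate 3. These comparisons share samples and are not independent of each other.

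**Figure D1:**
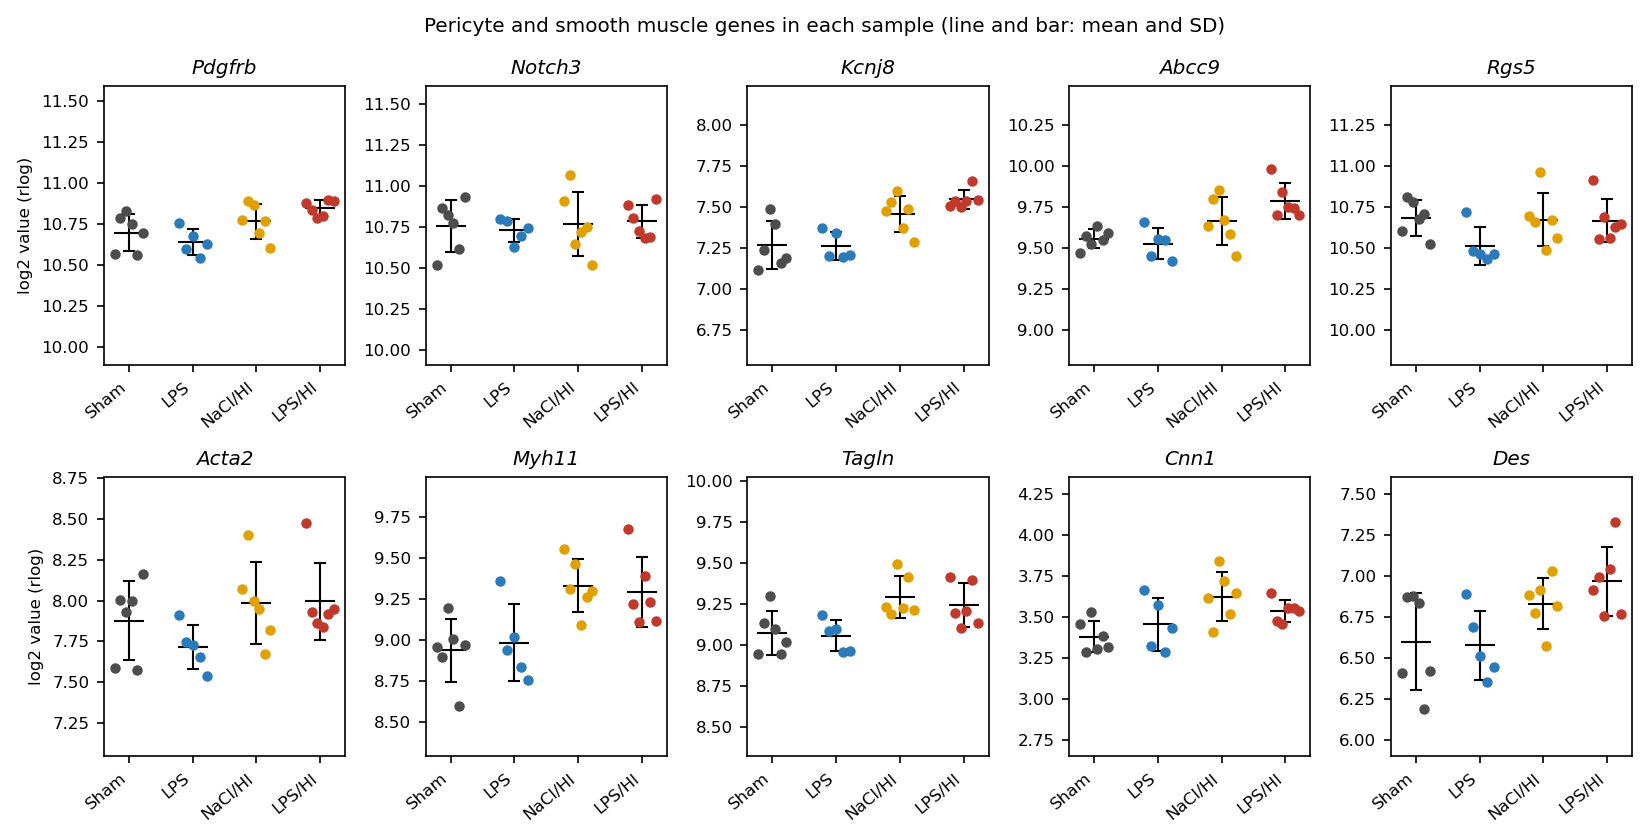
Deposited log2 (rlog) values of the 10 genes in each of the 23 samples, by group, with a line for the mean and a bar for 1 SD. Each panel has its own range on a scale of the same length, and for Kcnj8 and Abcc9 all 6 LPS/HI samples lie above all Sham and all LPS samples.

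Kcnj8 encodes Kir6.1, the pore of the ATP-sensitive potassium channel of vascular mural cells, whose opening relaxes them. Its values in Sham had a lowest of 7.12, a median of 7.21 and a highest of 7.49 log2. The 5 LPS samples had 7.37 and 7.34 in replicates 1 and 3 and 7.2 in each of the other 3. In NaCl/HI the lowest, median and highest were 7.29, 7.48 and 7.59, and in LPS/HI they were 7.50, 7.54 and 7.66. The LPS/HI samples were close together and all 6 were above the highest Sham and the highest LPS sample, while NaCl/HI overlapped every other group. The mean rose from 7.26 ± 0.15 (SD, n = 6) in Sham to 7.55 ± 0.06 (SD, n = 6) in LPS/HI, a difference of 0.28 ± 0.07 (SE), with a limma adjusted p of 0.0177. Against LPS, at 7.26 ± 0.09 (SD, n = 5), the difference was also 0.28, with a limma adjusted p of 0.0452. The mean in NaCl/HI was 7.46 ± 0.11 (SD, n = 6), 0.19 above Sham (95% interval 0.05 to 0.34) with a limma adjusted p of 0.216. LPS/HI and NaCl/HI differed by 0.09 (95% interval -0.05 to 0.23, limma adjusted p 0.688). The call against Sham was kept when each of the 23 libraries was left out, with adjusted p values of 0.00822 to 0.0484, but was lost with only the 2 groups in the fit (limma adjusted p 0.0536). The call against LPS was kept in 8 of 23 and lost without any 1 of the 6 LPS/HI samples, Sham replicates 2, 4 or 6, LPS replicates 2, 4 or 5, or NaCl/HI replicates 1, 2 or 5, where the adjusted p reached 0.141. It was also lost with only the 2 groups in the fit, with the replicate number as a block and after quantile normalization. By the exact Wilcoxon test, no gene at all passed against LPS.

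Abcc9 encodes SUR2, the regulatory subunit that joins Kir6.1 in this channel. In Sham its lowest, median and highest values were 9.47, 9.56 and 9.63 log2. The LPS samples had 9.66, 9.45, 9.55, 9.55 and 9.42. NaCl/HI ran from 9.45 through a median of 9.65 to 9.85, and LPS/HI from 9.70 through 9.75 to 9.98. As for Kcnj8, the 6 LPS/HI samples lay above all Sham and all LPS samples, although the gap to the highest LPS sample was small. Sham averaged 9.56 ± 0.06 (SD, n = 6), LPS 9.53 ± 0.10 (SD, n = 5), NaCl/HI 9.66 ± 0.15 (SD, n = 6) and LPS/HI 9.79 ± 0.11 (SD, n = 6). The rise in LPS/HI was 0.23 ± 0.06 (SE) over Sham, with a limma adjusted p of 0.0301, and 0.26 ± 0.07 (SE) over LPS, with a limma adjusted p of 0.0467. NaCl/HI was 0.11 above Sham (limma adjusted p 0.440). Without Sham replicate 1 or 5, or LPS/HI replicate 3 or 5, the call against Sham was lost, with an adjusted p of up to 0.0662. It was also lost with the replicate number as a block and after quantile normalization (limma adjusted p up to 0.0691). The call against LPS was kept in 5 of 23 (without LPS replicate 1 or without NaCl/HI replicate 2, 3, 4 or 6) and lost without any other library, with an adjusted p of up to 0.124. Having no variance trend, only the 2 groups in the fit, the replicate number as a block, median centring or quantile normalization also removed it. The other genes for channels of this type, Kcnj11 and Abcc8, which form the channel of pancreatic beta cells and neurons, differed from Sham by -0.08 and -0.05 in LPS/HI, with limma adjusted p values of 0.533 and 0.818.

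Pdgfrb encodes PDGF receptor beta, the receptor by which pericytes are recruited and kept on the vessel. Its values ran from 10.56 to 10.83 in Sham, 10.54 to 10.75 in LPS, 10.60 to 10.89 in NaCl/HI and 10.78 to 10.90 in LPS/HI. All 6 LPS/HI samples were above the highest LPS sample but not above the highest Sham sample. The difference was 0.21 ± 0.06 (SE) between LPS/HI and LPS, with a limma adjusted p of 0.0644, and 0.15 ± 0.06 (SE) between LPS/HI and Sham, with a limma adjusted p of 0.0892. Its paralog Pdgfra, the receptor of oligodendrocyte precursors and fibroblasts, had a difference of -0.24 between LPS/HI and LPS (limma adjusted p 0.352).

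Notch3 encodes the Notch receptor that smooth muscle cells and pericytes need to mature. It had the smallest spread of group means of the 10 genes, Sham being at 10.75 ± 0.16 (SD, n = 6), LPS at 10.73 ± 0.07 (SD, n = 5), NaCl/HI at 10.77 ± 0.19 (SD, n = 6) and LPS/HI at 10.78 ± 0.10 (SD, n = 6). The range of its means was 0.06 log2, below its SD within groups of 0.15, and its differences in the 6 pairs had limma adjusted p values of 0.831 and above. Its 95% interval between LPS/HI and Sham was -0.14 to 0.20. The paralogs Notch1 and Notch2 differed by -0.02 and 0.09 in the same comparison (limma adjusted p 0.866 and 0.351), and Notch4 by -0.20 (limma adjusted p 0.206).

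Rgs5 encodes a regulator of G protein signalling that is among the most used pericyte markers. Unlike the channel genes, it had its highest mean in Sham, at 10.68 ± 0.11 (SD, n = 6). NaCl/HI was at 10.67 ± 0.16 (SD, n = 6), LPS/HI at 10.67 ± 0.13 (SD, n = 6) and LPS at 10.51 ± 0.12 (SD, n = 5). The 5 LPS samples had 10.72, 10.48, 10.46, 10.44 and 10.46, so that 4 of 5 were below every Sham sample and replicate 1 stood apart. The difference between LPS and Sham was -0.17 ± 0.08 (SE), with a limma adjusted p of 0.141. For LPS/HI and Sham it was -0.02 (95% interval -0.17 to 0.14), but with array weights it was -0.14 and passed (limma adjusted p 0.0231). Its paralog Rgs1, a gene of immune cells, was higher in LPS than in Sham by 0.33 ± 0.10 (SE), with a limma adjusted p of 0.0256.

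The 4 contractile genes had their highest means in the HI groups. Myh11 encodes the smooth muscle myosin heavy chain, the most specific of them. Its lowest, median and highest values were 8.60, 8.96 and 9.19 in Sham, 9.09, 9.31 and 9.56 in NaCl/HI, and 9.11, 9.23 and 9.68 in LPS/HI. The LPS samples had 9.36, 8.94, 9.02, 8.83 and 8.76. Thus 5 of 6 NaCl/HI and 4 of 6 LPS/HI samples were above the highest Sham sample, while 1 LPS sample was as high as those groups. Myh11 had the largest difference of the 10 genes between NaCl/HI and Sham, 0.39 ± 0.11 (SE), or 1.31-fold, but a limma adjusted p of 0.157. The difference from Sham in LPS/HI was 0.35 ± 0.11 (SE), with a limma adjusted p of 0.0525. Leaving out Sham replicate 3, LPS replicate 1 or 5, NaCl/HI replicate 4 or LPS/HI replicate 6 took the latter past the threshold (lowest adjusted p 0.0355), and leaving out NaCl/HI replicate 4 did so for the former (adjusted p 0.0440). The non-muscle myosins Myh9 and Myh10 differed by 0.07 and -0.01 between LPS/HI and Sham (limma adjusted p 0.444 and 0.916), and Myh14 was higher by 0.25 (limma adjusted p 0.0233).

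Tagln encodes transgelin (SM22), an actin-binding protein of smooth muscle. Sham had a mean of 9.07 ± 0.13 (SD, n = 6), LPS of 9.06 ± 0.10 (SD, n = 5), NaCl/HI of 9.29 ± 0.13 (SD, n = 6) and LPS/HI of 9.24 ± 0.13 (SD, n = 6). The 5 LPS samples had 9.180, 9.08, 9.10, 8.96 and 8.96, all below the lowest NaCl/HI sample at 9.185, though the highest was so by a narrow margin. LPS and NaCl/HI differed by -0.24 ± 0.08 (SE), with a limma adjusted p of 0.0565. The differences from Sham were 0.22 in NaCl/HI and 0.17 in LPS/HI, with limma adjusted p values of 0.198 and 0.143. Tagln2, a relative that immune cells also use, exceeded its LPS level in LPS/HI by 0.29 ± 0.07 (SE), with a limma adjusted p of 0.0275.

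Cnn1 encodes calponin, which binds actin and slows the myosin of smooth muscle. Its values, from 3.28 to 3.84, lie in the low range where the rlog draws values together. Sham was at 3.38 ± 0.10 (SD, n = 6), LPS at 3.46 ± 0.16 (SD, n = 5), NaCl/HI at 3.63 ± 0.15 (SD, n = 6) and LPS/HI at 3.54 ± 0.07 (SD, n = 6), with every group overlapping the others. The difference between NaCl/HI and Sham was 0.24 ± 0.08 (SE), with a limma adjusted p of 0.181. The more widely expressed calponins Cnn2 and Cnn3 were 0.24 and 0.19 higher in LPS/HI than in Sham, with limma adjusted p values of 0.0870 and 0.138.

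Acta2 encodes smooth muscle alpha-actin. Its groups overlapped throughout, with values from 7.58 to 8.16 in Sham, 7.54 to 7.91 in LPS, 7.68 to 8.40 in NaCl/HI and 7.84 to 8.47 in LPS/HI. LPS/HI replicate 1, at 8.47, stood apart from the other 5 samples of its group, none above 7.95. The difference of LPS/HI was 0.12 ± 0.13 (SE) from Sham and 0.28 ± 0.13 (SE) from LPS, with limma adjusted p values of 0.587 and 0.315. The actins are close copies of each other, so reads can be split between Acta2, the enteric Actg2 and the skeletal Acta1, and values of these genes are uncertain. Actg2 was 0.47 ± 0.16 (SE) above Sham in NaCl/HI and 0.37 ± 0.16 (SE) in LPS/HI, with limma adjusted p values of 0.202 and 0.130. Acta1 was at 2.55 to 2.60 in all 4 group means.

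Des encodes desmin, the intermediate filament of muscle cells and pericytes. It had the widest spread within groups of the 10 genes, with an SD of 0.25, followed by Acta2 with 0.24. Its lowest, median and highest values were 6.19, 6.63 and 6.88 in Sham, 6.57, 6.85 and 7.03 in NaCl/HI, and 6.76, 6.95 and 7.33 in LPS/HI. The LPS samples had 6.89, 6.69, 6.51, 6.35 and 6.44. The Sham samples fell into 3 between 6.84 and 6.88 and 3 between 6.19 and 6.42, and every LPS/HI and NaCl/HI sample was above the lower 3. LPS/HI was 0.37 ± 0.13 (SE) above Sham and 0.39 ± 0.14 (SE) above LPS, with limma adjusted p values of 0.0757 and 0.141. Among other intermediate filament genes, Vim, which many cell types use, was higher in LPS/HI than in Sham by 0.42 ± 0.09 (SE), with a limma adjusted p of 0.00709, and Gfap of astrocytes by 0.84 ± 0.24 (SE), with a limma adjusted p of 0.0326.

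The order of the group means was the same in 6 of the 10 genes. LPS/HI was highest, then NaCl/HI, Sham and LPS, for Pdgfrb, Acta2, Kcnj8, Abcc9, Notch3 and Des. Tagln had NaCl/HI highest, then LPS/HI, Sham and LPS, Myh11 and Cnn1 had NaCl/HI highest, then LPS/HI, LPS and Sham, and Rgs5 had Sham highest and LPS lowest. None of the 10 genes passed the test between LPS/HI and NaCl/HI, the first 2 groups in most of these orders, or between Sham and LPS, the last 2.

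Between LPS/HI and Sham, 2 of the 10 genes passed at a limma adjusted p under 0.05, where 8.77% of all genes did, and 2 of 10 had groups that did not overlap, where 6.37% of all genes did. Between LPS/HI and LPS, 2 of 10 passed against 1.94% of all genes, and 3 of 10 (Pdgfrb, Kcnj8 and Abcc9) did not overlap against 4.17%. None passed the study's further threshold, a fold change above 2. By the exact two-sided Wilcoxon test, 2 of 10 passed between LPS/HI and Sham and 0 between LPS/HI and LPS, where 9.84% and 0% of all genes did. When the libraries were left out in turn, LPS/HI stayed higher than LPS in all 10 genes, and higher than Sham in 8 to 10.

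In the other 4 pairs, limma called none of the 10 genes. Between LPS and Sham, where 17.8% of all genes passed, 1 of 10 had an unadjusted p under 0.05, against 32% of all genes, and 0 passed by Wilcoxon, against 19.1%. Between NaCl/HI and Sham, where 0.00985% of all genes (2 genes) passed, 4 of 10 had an unadjusted p under 0.05, against 14.8% of all genes, and all 4 were higher in NaCl/HI. Between LPS/HI and NaCl/HI, where 0.202% of all genes passed, 0 of 10 had an unadjusted p under 0.05, against 10.6% of all genes. The number of genes higher in LPS/HI was 6 of 10 there, but 4 after each library was centred on its median and 5 after quantile normalization. Between LPS and NaCl/HI, where 8.98% of all genes passed, all 10 means were lower in LPS (median difference -0.18), and 5 of 10 had an unadjusted p under 0.05, against 23% of all genes. In these last 3 pairs, 0 of the 10 genes passed by Wilcoxon, as did 0 of all 20301 genes. Between LPS and NaCl/HI, and between LPS/HI and LPS, even genes whose groups did not overlap did not pass. Where 0 of all genes passed by Wilcoxon, a 0 for the 10 genes or for a list does not set them apart. Tagln was the only one of the 10 whose groups did not overlap between LPS and NaCl/HI, against 7.31% of all genes.

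The interaction asks whether LPS changes the difference that HI makes, but cannot separate this from Sham alone having no listed injection. Limma called none of the 10 genes for it, where 1.08% of all genes passed, and 0 of 10 had an unadjusted p under 0.05, against 15.1% of all genes. The interaction was positive in 7 of 10 genes, from 0.17 for Acta2 to -0.16 for Cnn1. A contrast of both HI groups with both groups without HI was added after the values had been seen. All 10 means were higher with HI, by 0.04 for Notch3 to 0.35 for Myh11, and 2 of 10 passed, against 0.906% of all genes. These were Kcnj8, at 0.24 ± 0.05 (SE) with a limma adjusted p of 0.0254, and Myh11, at 0.35 ± 0.08 (SE) with a limma adjusted p of 0.0403. The Kcnj8 call was lost without LPS replicate 2, 4 or 5, NaCl/HI replicate 1 or 5, Sham replicate 5 or LPS/HI replicate 5 (adjusted p up to 0.0597), and the Myh11 call was kept without Sham replicate 3, LPS replicate 1, NaCl/HI replicate 4 or LPS/HI replicate 3 or 6 and lost without any other library (adjusted p up to 0.0956). The like contrast of both LPS groups with both groups without LPS called 0 of 10, against 16.3% of all genes, with 0 at an unadjusted p under 0.05, against 30.6%, and 5 of 10 means were higher.

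**Figure D2:**
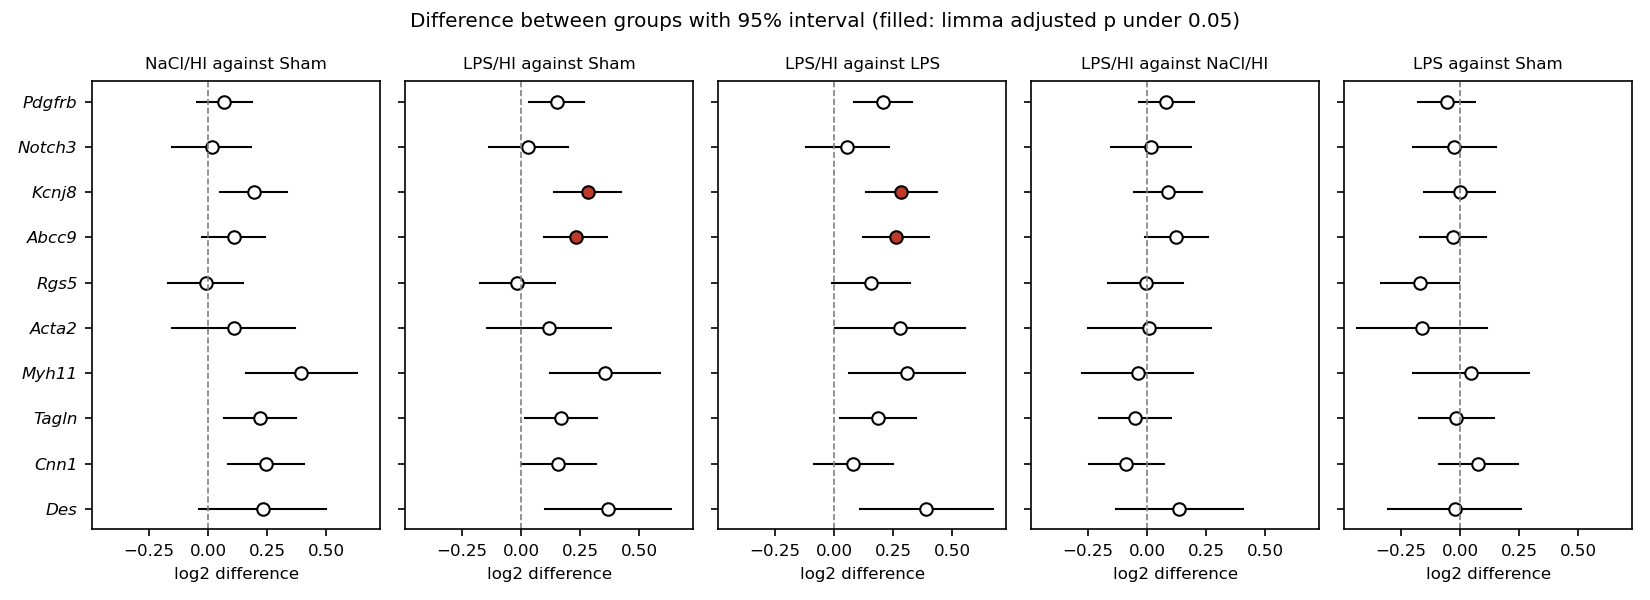
Difference of the group means of the 10 genes (log2, horizontal axis) with its 95% interval in 5 comparisons, from the limma fit of all 23 samples, with filled points where the adjusted p was under 0.05. Only Kcnj8 and Abcc9 are filled, in LPS/HI against Sham and LPS/HI against LPS, and most points of the 3 HI comparisons lie to the right of 0.

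The library names run in a first series of 12 and a second of 11 samples, each with all 4 groups, and the labels do not say that these are batches. The 10 genes were higher in LPS/HI than in LPS in 10 of 10 within each series, with median differences of 0.18 and 0.28. Against Sham, LPS/HI was higher in 9 and 7 of 10 (medians 0.14 and 0.20), and NaCl/HI in 10 and 6 of 10 (medians 0.19 and 0.08). LPS/HI was above NaCl/HI in 2 of 10 genes in the first series (median -0.06) and in 8 of 10 in the second (median 0.09), so the order of these groups was not the same in both. The Kcnj8 difference between LPS/HI and Sham was 0.23 and 0.33 in the 2 series, and that of Abcc9 was 0.32 and 0.14.

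Other pericyte genes were read for comparison, 15 of 16 listed ones being in the table. Counts of calls in this and the following lists can be read against the shares of all genes, 1.94% between LPS/HI and LPS, 8.77% between LPS/HI and Sham, 17.8% between LPS and Sham and 8.98% between LPS and NaCl/HI. Relative to LPS, 14 of 15 had a higher mean in LPS/HI (median 0.25), and 3 rose: Mcam, an adhesion molecule of vessel walls, by 0.42, Tbx18, a mural transcription factor, by 0.30, and Atp13a5, a transporter gene of brain pericytes, by 0.27, with limma adjusted p values of 0.0145, 0.0388 and 0.0442. Relative to Sham, 11 of 15 were higher in LPS/HI (median 0.11), and Mcam and Vtn, the gene of the matrix protein vitronectin, rose by 0.29 and 0.20. Between LPS and Sham, 3 of 15 were higher, and Ebf1 and Tbx18, both transcription factors, fell by 0.23 and 0.22 in LPS. Ebf1 was kept without any single library and Tbx18 in 14 of 23 such fits, and the 3 of 15 became 1 without Sham replicate 5 and 6 without Sham replicate 3. Tbx18 and Atp13a5 were also lower in LPS than in NaCl/HI, by 0.26 and 0.25, and neither call was left without LPS replicate 2 or 5 or NaCl/HI replicate 3. Between NaCl/HI and Sham, 8 of 15 were higher in NaCl/HI (median 0.02), a count of 6 to 10 without single libraries. No gene of the list passed there, where 2 of 15 had an unadjusted p under 0.05 and 0 passed by Wilcoxon. The 3 calls between LPS/HI and LPS numbered 0 without LPS replicate 4, and the 2 between LPS/HI and Sham numbered 0 without LPS/HI replicate 4 or 5 or Sham replicate 5 or 6.

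Of 21 other smooth muscle contractile genes, 20 were in the table. Their median difference was 0.09 between LPS/HI and LPS (16 of 20 higher), 0.06 between LPS/HI and Sham (13 of 20 higher) and 0.02 between NaCl/HI and Sham (12 of 20 higher). The last of these was -0.01 without Sham replicate 5 (9 of 20 higher) and 0.06 without Sham replicate 3, and the median between LPS/HI and Sham was 0.04 and 0.10 without the same libraries. Cald1, which encodes the actin regulator caldesmon, rose by 0.39 between LPS and LPS/HI, and the smoothelin gene Smtn and the LIM protein gene Crip1 were higher in LPS/HI than in Sham by 0.25 and 0.42. In LPS without HI, Smtn was also higher than in Sham, by 0.25, and Mrtfa, a coactivator of serum response factor, by 0.19, while the tropomyosin gene Tpm2 fell by 0.18. Synpo2, an actin-bundling gene of muscle, was lower in LPS than in NaCl/HI by 0.35, and Mrtfa higher by 0.20. The share of the list called was 15% between LPS and Sham, 10% between LPS/HI and Sham and 10% between LPS and NaCl/HI, near those of all genes (17.8%, 8.77% and 8.98%). The Cald1 call was lost without LPS replicate 4 or 5, and those of Smtn, Crip1, Mrtfa and Synpo2 were kept in 4 to 16 of the 23 fits that left out 1 library. No gene of the list was called between NaCl/HI and Sham, where 4 of 20 had an unadjusted p under 0.05 and 0 passed by Wilcoxon.

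The ligands, co-receptors and targets of the PDGF and Notch pathways were all 19 in the table. Between LPS and Sham, 4 passed, 21.1% of the list where 17.8% of all genes passed. Notch4, an endothelial Notch receptor, fell by 0.35, Pdgfb, the ligand that recruits pericytes, by 0.27, and Pdgfd, another ligand of PDGF receptor beta, by 0.22, while Nrp1, a co-receptor, rose by 0.36. With LPS/HI set against LPS, 15 of 19 were higher and 1 passed, the Notch ligand Dll4 of endothelial tip cells, by 0.42 ± 0.11 (SE) with a limma adjusted p of 0.0458. Pdgfa was 0.74 lower in LPS than in NaCl/HI. Of the 4 calls between LPS and Sham 0 were left without LPS replicate 4, while Pdgfb and Nrp1 were kept without any other library, and the Dll4 call was kept in 5 of 23 such fits. Limma called no gene of the list between either HI group and Sham, with 1 of 19 at an unadjusted p under 0.05 in LPS/HI, against 26.8% of all genes, and 3 in NaCl/HI, against 14.8%, and 0 by Wilcoxon in both.

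Of 23 genes of TGF-beta, angiopoietin and endothelin signals to mural cells, 7 fell in LPS against Sham, among them the TGF-beta receptor gene Tgfbr1 and the TGF-beta inhibitor Smad7, each by 0.34, and the ligand gene Tgfb3 by 0.32, and 2 of 23 had a higher mean (1 to 3 without single libraries). Microglia also use TGF-beta receptors and their inhibitors. Against LPS, 22 of 23 were higher in LPS/HI (median 0.17) and 4 rose, led by the endothelin ligand gene Edn1 by 0.48, the sphingosine phosphate receptor gene S1pr3 by 0.41 and Angpt2, the angiopoietin that loosens pericytes from vessels, by 0.36. S1pr3, Angpt2 and Angpt1, the angiopoietin made by mural cells, were higher in LPS/HI than in Sham by 0.34, 0.30 and 0.27. Between LPS and NaCl/HI, 6 were lower in LPS. Without LPS replicate 4, the 4 calls between LPS/HI and LPS numbered 0 and the 6 between LPS and NaCl/HI numbered 4, while the 7 between LPS and Sham numbered 6 or 7 without any single library. Under the alternatives that kept all libraries, the 4 calls numbered 0 to 15. The paralogs of the 10 genes, 26 of 27 in the table, had 3 higher in LPS/HI than in Sham (Gfap, Vim and Myh14), and 1 (Tagln2) higher than in LPS. The 3 numbered 1 without Sham replicate 5 or LPS/HI replicate 2 or 4, and the Tagln2 call was lost when replicate 2, 4 or 5 of either group was left out.

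Endothelial and fibroblast markers, which mark the cells next to mural cells, were read in the same way. Of 16 endothelial markers in the table, 15 were higher in LPS/HI than in LPS (median 0.22), and 3 rose: Esam, an adhesion molecule of endothelial junctions, by 0.38, Vwf, the von Willebrand factor gene, by 0.35, and the VEGF receptor gene Flt1 by 0.31. Vwf and Flt1 were kept without any single library, and Esam was lost when replicate 2, 4 or 5 of either group was left out. With only the 2 groups in the fit, 0 of the 3 passed. Against Sham, 12 of 16 were higher in LPS/HI (median 0.05) and 2, Vwf and Pecam1, passed, against 8.77% of all genes, and 0 did without Sham replicate 1 or 2 or LPS/HI replicate 2, 4 or 5. In NaCl/HI, 3 of 16 were higher than in Sham (median -0.07), with none called, 1 at an unadjusted p under 0.05 and 0 by Wilcoxon. In the same comparison 9 of the 10 mural genes were higher, but only 8 of the 15 other pericyte genes. Between LPS and Sham, 5 endothelial markers fell and Pecam1, an adhesion molecule also found on leukocytes, rose by 0.15, 6 of 16 where 17.8% of all genes passed, and these calls numbered 1 without LPS replicate 2 or 4. The log2 of the summed level of the list lay between 15.39 and 15.58 in Sham, 15.26 and 15.49 in LPS, 15.38 and 15.51 in NaCl/HI, and 15.46 and 15.76 in LPS/HI. None of the 16 markers was at or under 0 in any sample.

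All 12 fibroblast and meningeal markers were measured. With LPS as the reference, 10 of 12 were higher in LPS/HI (median 0.22) and 3 rose: the proteoglycan gene Dcn by 0.53 and the collagen genes Col1a2 and Col3a1 by 0.43 and 0.37, of which only Dcn passed without LPS replicate 4. Against Sham, 10 of 12 were higher in LPS/HI (median 0.14), with 4 passing (1 without LPS/HI replicate 5), and 10 of 12 in NaCl/HI (median 0.12), with 0 passing by limma or Wilcoxon and 3 at an unadjusted p under 0.05. With both HI groups set against the others, 11 of 12 were higher (median 0.17) and 4 passed, led by Col1a1 at 0.39, Col1a2 at 0.36 and Dcn at 0.32. In this contrast 2 of the 10 mural genes (median 0.19) and 0.906% of all genes passed. The 4 calls numbered 2 without LPS replicate 5. The astrocyte marker Gfap passed in this contrast as well, at 0.72, but in 4 of 23 fits that left out 1 library. The log2 of the summed level lay between 13.53 and 13.73 in Sham, 13.45 and 13.72 in LPS, 13.55 and 13.89 in NaCl/HI, and 13.69 and 13.83 in LPS/HI, and none of the 12 was at or under 0. For the 10 mural genes the same sum lay between 12.70 and 12.95 in Sham, 12.70 and 12.93 in LPS, 12.77 and 13.04 in NaCl/HI, and 12.90 and 13.12 in LPS/HI. The part that endothelial cells and fibroblasts in the isolates have in the differences of the 10 genes was not tested.

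**Figure D3:**
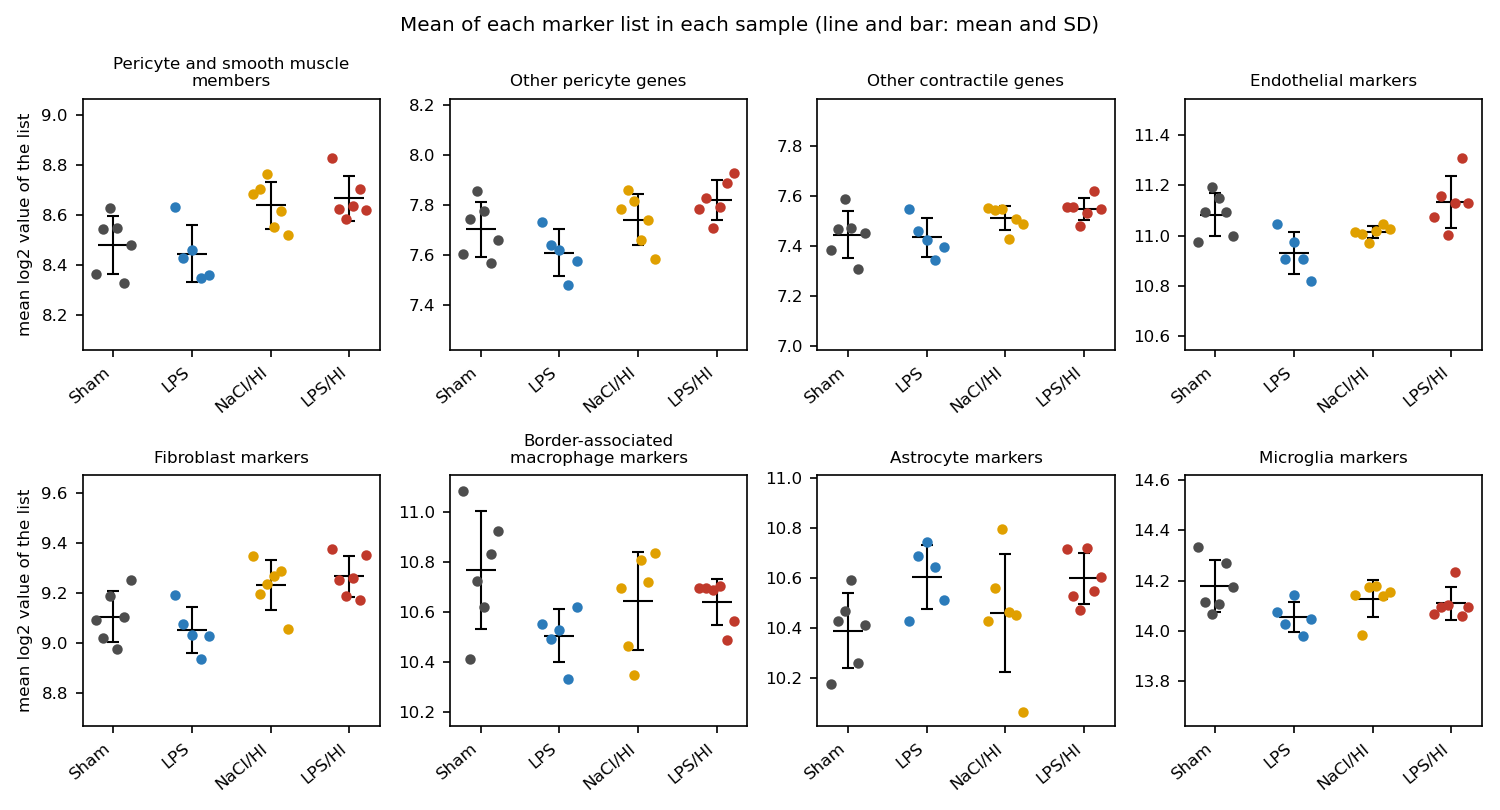
Mean log2 value over the genes of 8 lists in each of the 23 samples, by group, with a line for the mean of the group and a bar for 1 SD. The mean of the 10 mural genes was highest in LPS/HI, between 8.58 and 8.83, and the means of the other pericyte, contractile, endothelial and fibroblast lists were also highest in LPS/HI.

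Other cell types were read from lists of the same kind, none of which had a gene at or under 0. In LPS/HI, 9 of 10 astrocyte markers were higher than in Sham, with 1 (Gfap) passing in 17 of 23 fits that left out 1 library, and between LPS and Sham 10 of 10 were, with 3 passing (1 without LPS replicate 2). Of 12 microglia markers, Sall1, a transcription factor of microglia, was lower in LPS/HI than in Sham by 0.22, and between LPS and Sham 5 were lower and 2 (C1qa and C1qb) higher. Of 11 neuron markers, 3 passed as lower in LPS/HI than in Sham, and of 8 border macrophage markers 1 did, Lyve1, by 0.60. No marker of the oligodendrocyte lineage, the choroid plexus or erythrocytes passed by limma in that comparison, with 0 of 10, 0 of 7 and 1 of 6 at an unadjusted p under 0.05, against 26.8% of all genes, and 0 by Wilcoxon in each list, against 9.84%. Relative to LPS, all 6 erythrocyte markers had a higher mean in LPS/HI (median 0.25, and 6 of 6 without any single library), with 0 called, 0 at an unadjusted p under 0.05 and 0 by Wilcoxon, and 5 of 8 border macrophage markers did (median 0.21), with 0 called, 2 at an unadjusted p under 0.05 and 0 by Wilcoxon. The medians of the astrocyte, microglia, neuron, oligodendrocyte and choroid plexus lists were -0.05, 0.06, 0.08, 0.13 and 0.01 there, and 1 of their genes passed, the neuron marker Stmn2, in 15 of 23 fits without 1 library. Without single libraries the choroid plexus median ran from -0.04 to 0.10 and the astrocyte median from -0.12 to -0.04. The microglia median ran from 0.03 to 0.08, the neuron median from 0.04 to 0.12 and the erythrocyte median from 0.16 to 0.31. The part of these cells in the differences of the 10 genes was not tested.

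Within groups, most pairs of the 10 genes tended to vary in the same direction. After the group means had been subtracted, 43 of the 45 pairs had a positive Pearson's r over the 23 samples, with a median of 0.48 and a range of -0.36 to 0.85, and the median of Spearman's rho was 0.41. The median r of the 10 genes with all other genes was -0.01. In permutations of the samples within groups, 22 of 45 pairs passed at an adjusted p under 0.05 by r and 15 by rho, and all 22 were positive. Without the 2 samples farthest from the median of the first gene the median r was 0.46. It was 0.52 in the first library series (43 of 45 positive) and 0.22 in the second (31 of 45 positive). The number past the threshold by r lay between 17 and 24 when single libraries were left out, except without LPS replicate 1, where it was 11. The values of a pair come from the same library at the same depth.

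Pdgfrb and Kcnj8 were the closest pair, with an r of 0.85 and a rho of 0.88 (permutation p 4e-05 and 2e-05, adjusted over the 45 pairs 0.00180 and 0.000900). The r was 0.84 without the 2 farthest samples, and 0.80 and 0.79 in the 2 library series. Tagln and Des had an r of 0.75 and a rho of 0.79, and Acta2 and Notch3 an r of 0.74 and a rho of 0.75, all past the threshold. Kcnj8 and Abcc9, the 2 subunits of 1 channel, had an r of 0.44 and a rho of 0.34 (permutation p 0.0333 and 0.115), which did not pass after adjustment. By median r with the other 9 genes, Tagln (0.64) and Pdgfrb (0.62) were closest to the rest, and Notch3 (0.24) and Cnn1 (0.23) least. Notch3 and Cnn1 had the lowest r, -0.36 (permutation p 0.130, adjusted 0.194), which was -0.15 without the 2 farthest samples.

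**Figure D4:**
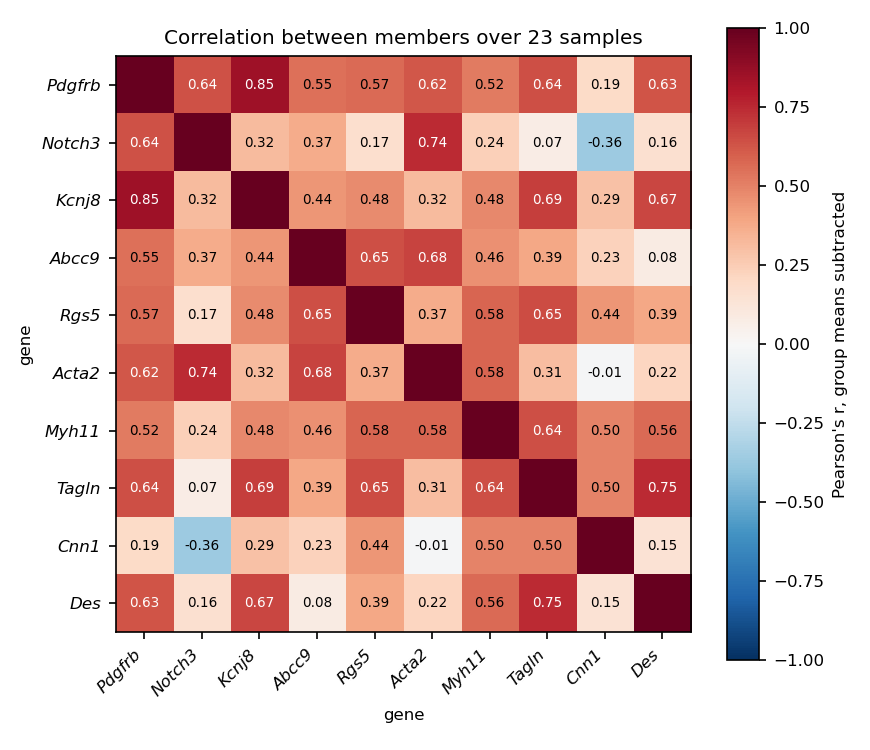
Pearson's r between the 10 genes over 23 samples after subtraction of the group means, with the value in each cell and a colour scale from -1 to 1. Of the 45 pairs, 43 are positive, and Notch3 with Cnn1 is the lowest at -0.36.

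The genes outside the 10 whose values most resembled each of them were read by Pearson's r over all 23 samples, group differences included, as a description. For Kcnj8 these were S1pr3 (0.90), Thbd (0.89) and Dkk3 (0.87), and for Abcc9 Rab11fip1 (0.88), Atp13a5 (0.85) and Mgam (0.81). For Pdgfrb they were Vcl (0.90) and Actn1 (0.88), which encode the actin anchoring proteins vinculin and alpha-actinin, and AABR07044388.2 (0.87). Myh11 was closest to Synpo2 (0.88), Ccdc3 (0.88) and Cd44 (0.85), Tagln to Plekhb2 (0.84), Col3a1 (0.82) and S1pr3 (0.82), and Cnn1 to Actg2 (0.77), Uqcr11 (0.70) and Il12rb1 (0.70). Des was closest to Ifitm3 (0.93), an interferon-induced gene, then Aspg (0.88) and Art4 (0.87). Acta2 was closest to Slc22a15 (0.86), Syne3 (0.83) and Dgkh (0.81), Notch3 to Sec14l1 (0.82), Mras (0.80) and Coro2b (0.80), and Rgs5 to Polr3f (0.87), Rab6a (0.82) and Fpgt (0.82). Of these, 5 were on lists read here. S1pr3, Atp13a5 and the fibroblast marker Col3a1 rose between LPS and LPS/HI by 0.41, 0.27 and 0.37, while Synpo2 and Actg2, with differences of 0.35 and 0.17, did not pass. All were picked by likeness over the same samples, so these differences are not separate results.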

How the data were processed

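RNA of CD11b/c-sorted microglia was measured in 23 samples, grouped by their titles. The authors quantified reads with kallisto 0.48.0 on mRatBN7.2 after FastQC 0.11.9 and MultiQC 1.14, brought them into DESeq2 through tximport, dropped genes with fewer than 10 counts, and applied the rlog. The deposited values are log2 values from which the authors removed 3 surrogate variables with limma and sva. This lowers the spread within groups and may shift group means, so p values, permutation ones included, may be too small. Counts were not analysed, which leaves the depth per sample, and with it the precision of genes with few reads, unknown, and limma on log2 values replaced the count model of the methods.

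Groups were compared in R 4.3.3 with limma 3.58.1, in 1 fit of all samples and genes with a variance trend, Benjamini-Hochberg adjustment over all genes, and 16 residual degrees of freedom, because the samples spanned 16 dimensions in place of 19 once group means were subtracted. Titles call the samples biological replicates. Correlations used 100000 permutations within groups. All else ran in Python 3.11.15 (scipy 1.17.1, pandas 2.3.3, numpy 2.4.6 and matplotlib 3.10.9). The 10 genes and the 14 lists beside them were chosen with earlier results of these data known. The genes named from a list are at most the 3 with the largest difference among those at an adjusted p under 0.05 per comparison, beside paralogs of the 10 genes and the 3 genes most like each by r. Pecam1 and C1qb were named outside this rule, after their values were seen. Contrasts of both HI groups and of both LPS groups were added after the values had been seen. On simulated data of 20301 genes for LPS/HI against Sham, with 200 changed per run, 98% to 99% of changes of 4 SD and 19% to 29% of those of 2 SD were recovered, 0 with the wrong sign, and 1.61% to 8.59% of the calls of a run were false. The changes were put into LPS/HI against all other groups. Each gene was drawn independently, and the 3 variables removed were random and unrelated to the groups. These rates therefore need not hold for the real data, where genes vary together and the surrogate variables were estimated. Alternatives changed 1 choice at a time. No column was left unused.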

Additional observations from a re-analysis of the deposited data

Results flagged for a closer look

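In 3 of 40 groups tested (10 genes in 4 groups), 1 sample lay far from the others by Dixon's criterion, which chance meets in about 1 in 20 groups. For Rgs5, LPS replicate 1 was at 10.72, and its gap to the next sample was 0.840 of the range of the group. Acta2 in LPS/HI replicate 1 was at 8.47, with a gap of 0.826 of the range. Kcnj8 in LPS/HI replicate 5 was at 7.66, with a gap of 0.723 of the range.

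Of the 183 genes on the lists read beside the 10 genes, 3 (1.64%, where 1.08% of all genes passed) had an interaction of LPS with HI past the threshold, a test of whether the difference HI made was the same with and without LPS. This test also takes in that Sham alone had no listed injection. The interaction was 0.70 for the endothelin ligand gene Edn1, 0.39 for the endothelial transporter gene Abcb1a and 0.38 for the VEGF receptor gene Flt1, with limma adjusted p values of 0.0270, 0.0316 and 0.0366. None of the 3 held under every fit that left out 1 library: Edn1 was kept in 17 of 23, Abcb1a in 13 and Flt1 in 9, with adjusted p values of up to 0.0611, 0.0724 and 0.0776, and all 3 were lost without LPS replicate 4, LPS/HI replicate 2 or 4, NaCl/HI replicate 1 or 2, or Sham replicate 4, and with a replicate block.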

How the results depend on the processing

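Alternatives changed 1 choice each, and 23 more fits each left out 1 library. Single genes were followed under all of these only for differences picked for a small unadjusted limma p in the main fit. Of these values, 362 kept their direction and side of the threshold, 29 newly passed and 50 no longer passed, and none changed sign. Differences that were not picked did change sign, such as that of Kcnj8 between LPS and Sham in 5 of 23 fits without 1 library. The 2 calls between LPS/HI and Sham became 5 with 19 residual degrees of freedom, 1 with only the 2 groups in the fit, 3 with a library series block, 3 with the lowest 25% of genes left out, 1 after quantile normalization, 6 with array weights (5 higher in LPS/HI, and Rgs5 lower at -0.14), 0 at a fold change above 2, and 1 to 3 without single libraries. The 2 calls between LPS/HI and LPS became 3 with 19 degrees of freedom, 1 with no variance trend, 0 with only the 2 groups, 1 after median centring, 0 after quantile normalization, 4 with array weights, 0 by the exact Wilcoxon test, 0 at a fold change above 2, and 0 to 2 without single libraries. No gene at all passed the exact Wilcoxon test in that pair. The 0 calls between LPS and NaCl/HI became 2 with 19 degrees of freedom, 1 with a library series block, 1 with the lowest 25% of genes left out, 1 after quantile normalization, 1 with array weights, and 0 to 2 without single libraries. The 0 calls between NaCl/HI and Sham became 1 with array weights and 0 to 1 without single libraries. The 2 calls between both HI groups and the others became 5 with 19 degrees of freedom, 1 with no variance trend, 1 with robust moderation, 3 with a library series block, 6 with array weights, 0 at a fold change above 2, and 0 to 4 without single libraries, and the 0 calls between both LPS groups and the others became 1 with array weights (Rgs5, lower with LPS). The 22 correlated pairs became 11 to 24 without single libraries. The cause of these changes was not tested.

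Groups share replicate numbers, but samples with the same number did not deviate together in every pair (correlations of their deviations of -0.475 to 0.470), so the number was not used for pairing. With it as a replicate block, 0 genes passed between LPS/HI and LPS, 1 between LPS and NaCl/HI and 1 between both HI groups and the others. Between LPS/HI and Sham the block kept Kcnj8, dropped Abcc9 and added Myh11, with adjusted p values of 0.0542 for Abcc9 and 0.0387 for Myh11.

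Depth is unknown, and values of genes with few reads, such as Cnn1, are drawn together by the rlog.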
